A study of Mus musculus with 6 samples.

Results

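The collagen genes of mouse skeletal muscle are described here. Members were the rows of the count table whose gene symbol had the form Col, a number, a, and a number, which gave 44 of 49315 genes. They comprised 11 fibrillar collagen genes, 8 basement membrane collagen genes and 25 others. The gastrocnemius, a calf muscle, came from male C57BL6J mice, an inbred laboratory strain. Mice were 5 months old when adeno-associated virus of serotype 9 (AAV9) was injected into the muscle, and RNA was taken 5 months afterwards. In AAV9-HSA-CAAHR muscles the virus carried a constitutively active mouse aryl hydrocarbon receptor (CAAHR), a transcription factor that normally needs a ligand and from which the ligand binding domain had been deleted. In AAV9-HSA-GFP muscles it carried a green fluorescent protein. Both vectors used the promoter of human skeletal actin (HSA), which works in myofibres and not in the fibroblasts around them. There were 3 libraries in each group, numbered 31, 34 and 36 for AAV9-HSA-CAAHR and 42, 43 and 46 for AAV9-HSA-GFP, and values for single libraries are given in that order. Both groups had received virus, and muscle without virus was not analysed here.

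Collagens are secreted proteins built from 3 chains wound into a triple helix. Fibrillar collagens, of which types I and III dominate in muscle, form the tension-bearing fibrils of the endomysium, perimysium and tendon. Basement membrane collagens, chiefly type IV, form the sheet that surrounds every myofibre and capillary, and type VI forms beaded filaments between that sheet and the fibrils. In muscle much of the fibrillar collagen is made by fibroblasts rather than by the fibres themselves.

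Library totals were between 43432994 and 58825752 counts. Values are CPM, the counts of a gene relative to the library total, after TMM scaling (trimmed mean of M values). Ahr itself was at 9.97, 22.8 and 17.3 CPM in AAV9-HSA-CAAHR muscles and 2.47, 2.55 and 1.87 CPM in AAV9-HSA-GFP muscles, so every library matched its label. Fast fibre genes, the defining genes of this muscle, summed to 107000 to 151000 CPM in AAV9-HSA-CAAHR and 162000 to 166000 CPM in AAV9-HSA-GFP. AAV9-HSA-CAAHR replicate 34 stood apart from replicates 31 and 36 in several fibrillar and tendon genes and in slow fibre and adipocyte markers. For the named collagen and partner genes, calls that change without it are given both ways. The calls in cell type marker lists are given with all libraries only. Per the methods of the study the libraries are muscles of male mice, but the labels do not tie each library to its own mouse, so p-values measure the spread between these samples.

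The share of collagen genes that differed between the groups was close to the share of all genes. Of the 44 members, 39 had enough counts to be tested, and 3 of these had an adjusted p under 0.05 by edgeR's quasi-likelihood F test, adjusted over 15847 genes by the Benjamini-Hochberg method. That is 7.69% of those tested, against 7.6% of all genes tested. Col23a1 was higher in AAV9-HSA-CAAHR muscles (1 gene, against 3.04% of all genes called higher), and Col9a1 and Col7a1 were lower (2 genes, against 4.57% called lower). All 3 belonged to the 20 tested members outside the fibrillar and basement membrane classes (15.0%). No fibrillar gene of 11 and no basement membrane gene of 8 passed, and at an unadjusted p under 0.05 there was 1 of each. With the DESeq2 test 1 fibrillar gene passed, Col11a2, and no basement membrane gene passed with DESeq2 or limma voom. Over all genes DESeq2 called 1923 of 28661 and voom 1461 of 15847. Without a filter on low counts 5 collagen genes passed, adding Col11a2 and Col6a6, beside 8.62% of all genes in that fit. At an unadjusted p under 0.05 there were 10 of 39 collagen genes, 3 higher and 7 lower, against 23.9% of all genes tested. In 10 tested members the libraries of the groups did not overlap, against 29.9% of all genes, with 3 higher in AAV9-HSA-CAAHR (15.0% of all genes) and 7 lower (14.9%).

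Most fitted changes were small. The log2 fold change, AAV9-HSA-CAAHR over AAV9-HSA-GFP, lay within 0.5 of zero in 30 of the 39 tested members. Its median was 0.04 for fibrillar genes (from -0.20 to 0.57), -0.23 for basement membrane genes (from -0.47 to 0.26) and -0.11 for the others (from -4.23 to 1.28), beside 0.01 for all genes tested. Among the others, the median was 0.09 for the 8 tested FACIT genes (fibril-associated collagens with interrupted triple helices) and -0.11 for the 4 tested type VI genes. It was -0.15 for the 5 tested network-forming, anchoring and remaining genes. For the 3 tested transmembrane genes it was -0.62 (from -1.34 to 1.28), and the highest of them, Col23a1, was the only one called. The 5 members that were not tested were Col6a4, Col6a5, Col9a2, Col10a1 and Col25a1, each under 0.3 CPM in every library.

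**Figure D1:**
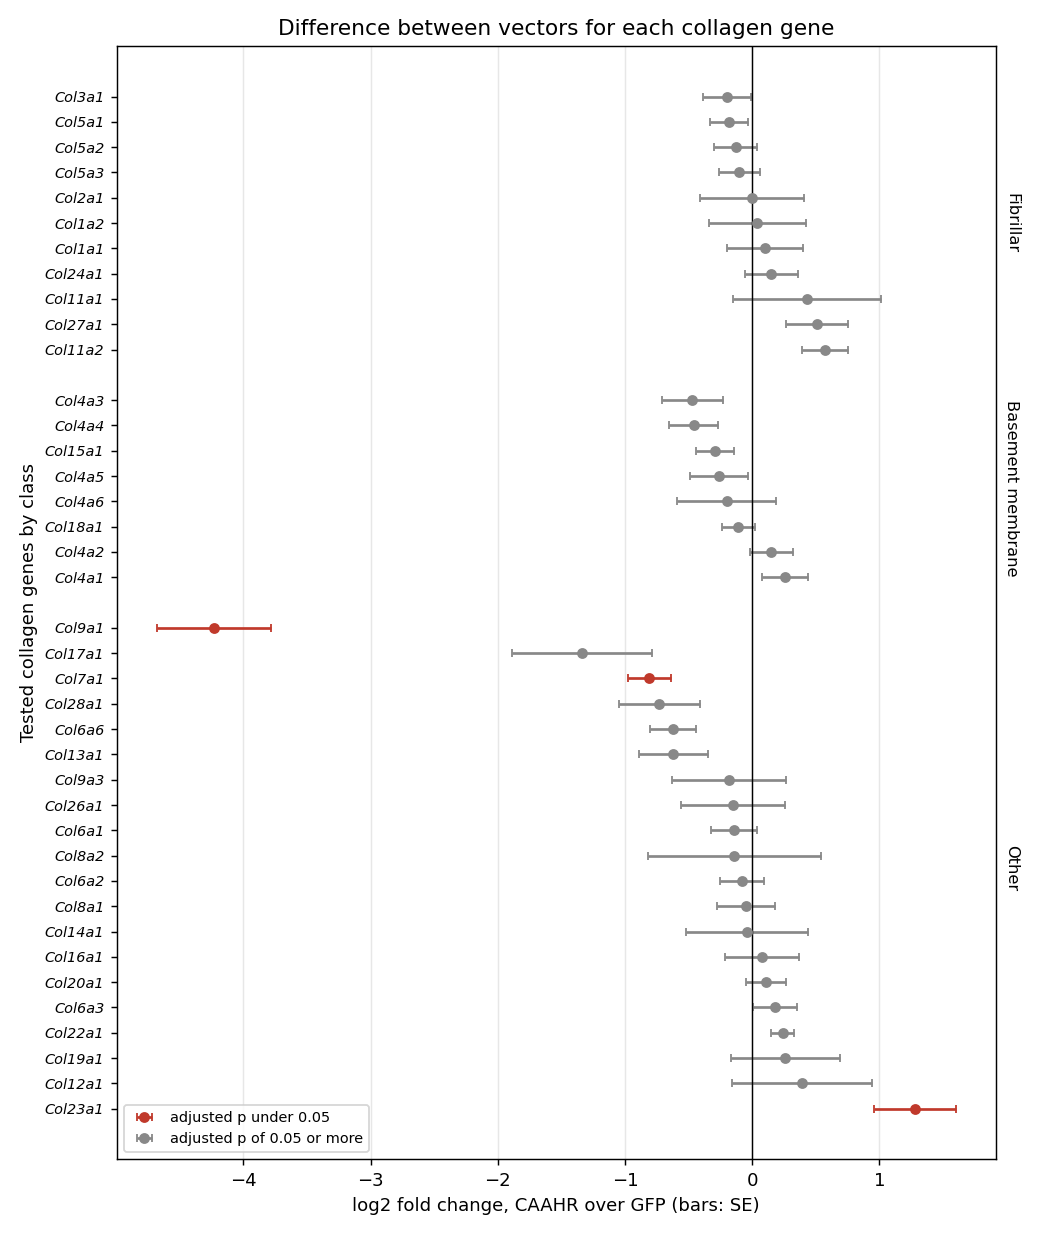
Log2 fold change, AAV9-HSA-CAAHR over AAV9-HSA-GFP, for the 39 tested collagen genes by class, with bars for the standard error and the 3 called genes coloured. Most points lie within 0.5 of zero, and Col9a1 at -4.23 lies far below the rest.

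The 3 genes that passed are shown first, with the 250 bases that precede their RefSeq transcription starts, where promoter motifs are read. Sequences are from the RefSeq table for GRCm38.p6, which held a start for 35 of the 44 members. Capitals mark GCGTG (the core of the motif bound by the aryl hydrocarbon receptor), TATAA (the TATA box) and GGGCGG (the GC box), on either strand. Col9a1 has 2 RefSeq starts, and 16 bases of the window before the downstream one are exonic in another transcript.

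Col9a1 upstream start, chr1:24177360-24177609, plus strand: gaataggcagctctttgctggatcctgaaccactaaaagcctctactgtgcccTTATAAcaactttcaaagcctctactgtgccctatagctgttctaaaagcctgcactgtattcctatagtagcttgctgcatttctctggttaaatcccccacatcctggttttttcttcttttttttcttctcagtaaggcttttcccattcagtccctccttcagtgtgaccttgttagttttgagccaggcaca
Col9a1 downstream start, chr1:24194953-24195202, plus strand: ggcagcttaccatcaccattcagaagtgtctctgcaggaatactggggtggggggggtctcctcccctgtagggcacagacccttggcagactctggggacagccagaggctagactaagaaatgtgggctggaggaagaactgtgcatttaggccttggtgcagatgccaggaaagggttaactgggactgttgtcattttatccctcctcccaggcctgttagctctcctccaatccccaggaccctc
Col7a1, chr9:108953336-108953585, plus strand: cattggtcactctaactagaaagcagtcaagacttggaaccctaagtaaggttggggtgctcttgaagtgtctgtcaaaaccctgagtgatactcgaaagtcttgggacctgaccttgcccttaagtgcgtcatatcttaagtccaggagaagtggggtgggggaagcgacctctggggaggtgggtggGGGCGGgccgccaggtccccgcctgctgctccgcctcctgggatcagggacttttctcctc
Col23a1, chr11:51289670-51289919, plus strand: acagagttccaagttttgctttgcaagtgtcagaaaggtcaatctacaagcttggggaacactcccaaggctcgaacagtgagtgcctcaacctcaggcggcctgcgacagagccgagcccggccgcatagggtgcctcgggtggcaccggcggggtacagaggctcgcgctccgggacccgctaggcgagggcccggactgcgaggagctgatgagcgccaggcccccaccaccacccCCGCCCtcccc

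None of these 4 windows held GCGTG, which was present in 28.2% of 32851 windows of the same length over all genes. The TTATAA before the upstream Col9a1 start is TATAA read on both strands, and TATAA was present in 22.8% of all windows. This TTATAA lies in the part of the window farther from the start, and whether it acts as a TATA box was not tested. GGGCGG stood before Col7a1 and, on the opposite strand, before Col23a1, and in 32.7% of all windows. Over all collagen genes with a window, 8 of 35 members had GCGTG, 7 had TATAA and 21 had GGGCGG. The 8 with GCGTG were Col11a2, Col13a1, Col16a1, Col4a1, Col4a2, Col5a3, Col6a2 and Col6a6, of which none passed the test. The median GC content was 59.0% over the collagen windows and 52.4% over all windows. Absence of these letters concerns only the windows read.

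Col9a1 fell most. It encodes the alpha-1 chain of type IX collagen, a FACIT that decorates type II fibrils in cartilage, and lies on chromosome 1 from 24177610 to 24252684 on the plus strand (ENSMUSG00000026147, GRCm38). It was at 0.257, 0.175 and 0.0492 CPM in AAV9-HSA-CAAHR muscles and at 2.61, 2.31 and 3.98 CPM in AAV9-HSA-GFP muscles. These values rested on 13, 10 and 3 counts and on 126, 96 and 211 counts. Every AAV9-HSA-CAAHR library lay below every AAV9-HSA-GFP library. The means were 0.16 ± 0.105 CPM and 2.97 ± 0.893 CPM (SD, n = 3), an 18.8-fold lower level. The log2 fold change was -4.23 ± 0.45 (SE), with an adjusted p of 0.00109 by edgeR. The gene passed the filter on low counts through the AAV9-HSA-GFP libraries. It was called in all 13 alternatives that tested it, with adjusted p from 1.27e-33 to 0.0072.

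No change in the partner chains of Col9a1 was detectable at this depth. Type IX collagen is a trimer of chains encoded by Col9a1, Col9a2 and Col9a3, and the values of its partners were looked at after that of Col9a1 was seen. Col9a3 was at 0.218, 0.175 and 0.23 CPM in AAV9-HSA-CAAHR and 0.269, 0.312 and 0.132 CPM in AAV9-HSA-GFP, at a log2 fold change of -0.18 ± 0.45 (SE) and, by edgeR, an adjusted p of 0.861. Its groups overlapped, and 6.1% of its exonic length is shared with Tcfl5 on the opposite strand. Col9a2, between 0.0481 and 0.264 CPM, was too low to test. Of 7 cartilage marker genes, Acan and Matn1, which encode defining cartilage matrix proteins, had at most 3 counts in every library. Chad (2.38 to 23.6 CPM) and Sox9 (1.6 to 3.26 CPM), the 2 markers with enough counts to be tested, were detected in all 6 libraries, with log2 fold changes of 0.40 and 0.55 and adjusted p of 0.829 and 0.23 by edgeR. The list summed to 4.36 to 27.0 CPM in AAV9-HSA-CAAHR and 11.2 to 16.6 CPM in AAV9-HSA-GFP, most of which was Chad. Chad was at 21.9, 2.38 and 23.6 CPM in AAV9-HSA-CAAHR, lowest in replicate 34. The part of cartilage in the Col9a1 values was not tested.

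Col7a1 also fell. It encodes the chain of type VII collagen, which forms the anchoring fibrils beneath basement membranes of skin, and lies on chromosome 9 from 108953586 to 108984875 (ENSMUSG00000025650). It was at 19.9, 32.8 and 22.6 CPM in AAV9-HSA-CAAHR muscles and at 44.2, 43.7 and 43.7 CPM in AAV9-HSA-GFP muscles. The AAV9-HSA-GFP libraries were almost equal, and the highest AAV9-HSA-CAAHR library, replicate 34, was still below all of them. The means were 25.1 ± 6.81 CPM and 43.9 ± 0.313 CPM (SD, n = 3), a 1.75-fold lower level. On the log2 scale the difference was -0.81 ± 0.17 (SE), with an adjusted p of 0.0247 by edgeR. In terms of level per length Col7a1 ranked 8 among all collagen genes. The call was kept without AAV9-HSA-CAAHR replicate 34 (log2 fold change -1.05, adjusted p 0.000271 by edgeR). It was lost when any other library was left out, with adjusted p of 0.057 without replicate 31, 0.0966 without 36, 0.0691 without 42, 0.0695 without 43 and 0.0902 without 46, all by edgeR.

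Col23a1 was the one collagen gene called higher by edgeR over all 6 libraries, and Col11a2, Col11a1 and Col12a1 were called higher only under some alternatives. It encodes a transmembrane collagen and lies on chromosome 11 from 51289920 to 51583918 (ENSMUSG00000063564). It was at 2.31, 4.53 and 4.08 CPM in AAV9-HSA-CAAHR muscles and at 1.68, 0.937 and 1.87 CPM in AAV9-HSA-GFP muscles. The groups did not overlap, though replicate 31 of AAV9-HSA-CAAHR lay close to the AAV9-HSA-GFP range. The means were 3.64 ± 1.17 CPM and 1.5 ± 0.492 CPM (SD, n = 3), a 2.42-fold higher level. The log2 fold change was 1.28 ± 0.32 (SE), with an adjusted p of 0.0445 by edgeR. The adjusted p was 0.0509 with upper quartile scaling. It was 0.0294 without AAV9-HSA-CAAHR replicate 31, and above the threshold without 34 (0.0677), 36 (0.142), 42 (0.0921), 43 (0.0995) or 46 (0.0849), all by edgeR.

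**Figure D2:**
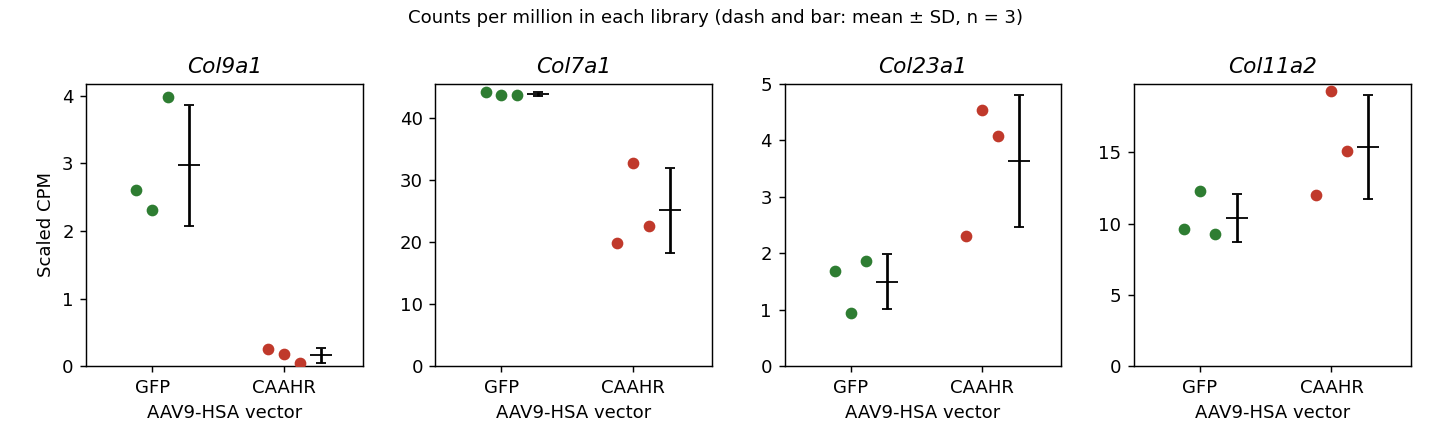
Scaled CPM in each library for Col9a1, Col7a1, Col23a1 and Col11a2, 1 panel per gene with a linear axis from 0. Points are libraries, and the dash with its bar is the mean ± SD of 3 libraries. Col9a1 and Col7a1 lie lower and Col23a1 higher in all AAV9-HSA-CAAHR libraries, and for Col11a2 the groups overlap.

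In bulk muscle, fewer cells of a type and less RNA per cell cannot be told apart, and several cell type marker lists differed in level. For comparison, edgeR called 7.6% of all genes tested, and 23.9% had an unadjusted p under 0.05. DESeq2 called 1923 of 28661 genes with any count, and voom called 1461 of 15847 genes. Macrophage markers summed to 24.1 to 41.7 CPM in AAV9-HSA-CAAHR and 48.8 to 105 CPM in AAV9-HSA-GFP, and all 8 were fitted lower. None had an adjusted p under 0.05 by edgeR, while 6 had an unadjusted p under 0.05, and 5 were called by DESeq2 and 1 by limma voom. The study reported a local immune response to AAV9-HSA-GFP itself. Its evidence was gene ontology of genes lower in AAV9-HSA-CAAHR by RNA sequencing, and qPCR of selected immune genes. By qPCR these genes were not lower in AAV9-HSA-CAAHR than in mice without virus. No such mice were compared here. Schwann cell and nerve markers summed to 47.3 to 77.7 CPM and 78.3 to 128 CPM, with all 8 fitted lower and none called by edgeR (3 at an unadjusted p under 0.05, 2 called by DESeq2 and 1 by voom). Slow fibre markers summed to 2770, 646 and 2510 CPM in replicates 31, 34 and 36 and to 227 to 460 CPM in AAV9-HSA-GFP, with all 8 fitted higher and none called by edgeR (7 at an unadjusted p under 0.05, 7 called by DESeq2 and 8 by voom). Among 8 fast fibre markers 7 were fitted lower, and 2, Tnnt3 and Tnni2, were called lower by edgeR. At an unadjusted p under 0.05 by edgeR 5 were lower, and DESeq2 called 4 and voom 3. Myh1 was fitted higher, with groups that overlapped, a log2 fold change of 1.0 and an adjusted p of 0.427 by edgeR. Of the 7 adipocyte markers 6 were fitted lower, with a median log2 fold change of -2.09 over the list, and 3 were called lower by edgeR, Plin1, Retn and Cfd. The list summed to 216 to 346 CPM and 263 to 339 CPM, most of which was Plin4 (183 to 324 CPM over the 6 libraries, log2 fold change 0.14). The fibroblast list, which includes Col1a1, summed to 702 to 1100 CPM and 988 to 1250 CPM. Of its 12 genes 7 were fitted lower, and 1, Smoc2, was called higher by edgeR (8.33%). At an unadjusted p under 0.05 by edgeR 1 was higher and 2 were lower, and DESeq2 called 2 and voom 1. Endothelial markers summed to 201 to 273 CPM and 204 to 254 CPM, those of smooth muscle and pericytes to 560 to 756 CPM and 579 to 640 CPM, and those of satellite and regenerating cells to 59.8 to 90.5 CPM and 74.7 to 82.4 CPM, none with a call by edgeR. At an unadjusted p under 0.05 these last 3 lists had 0, 0 and 1 genes, and DESeq2 called 0, 0 and 1 and voom 0. The single markers named here were chosen after their values were seen. The part of these cell types in the 3 collagen calls was not tested.

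Fibrillar collagen genes carried close to 50% of all collagen counts in each group. Per kilobase of annotated exon, Col1a1 was the most abundant collagen gene. Its level was 19.7 ± 7.70 CPM per kb in AAV9-HSA-CAAHR and 18.3 ± 2.87 CPM per kb in AAV9-HSA-GFP (SD, n = 3). Col1a2, which encodes the other chain of type I collagen, was at 11.9 ± 5.37 and 11.5 ± 1.79 CPM per kb. Col3a1, whose product shares fibrils with type I collagen, was at 6.84 ± 1.24 and 7.83 ± 1.74 CPM per kb. Lengths are the union of all annotated exons, 6563 bases for Col1a1 and 12426 for Col1a2, so that a long but rarely used exon lowers the level per kb.

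None of the abundant fibrillar genes passed the test. Col1a1 was at 174, 74.5 and 139 CPM in AAV9-HSA-CAAHR and at 118, 103 and 140 CPM in AAV9-HSA-GFP, at a log2 fold change of 0.10 ± 0.30 (SE) and, by edgeR, an adjusted p of 0.883. Col1a2 was at 198, 72.2 and 174 CPM and at 133, 129 and 169 CPM, with a log2 fold change of 0.04 ± 0.38 and an adjusted p of 0.963 by edgeR. For both genes replicate 34 of AAV9-HSA-CAAHR was the lowest of the 6 libraries, replicate 31 was the highest, and the groups overlapped. Col3a1 was at 79.0, 67.6 and 54.7 CPM and at 83.5, 57.5 and 89.6 CPM, with a log2 fold change of -0.20 ± 0.19 and an adjusted p of 0.59 by edgeR. Its groups overlapped as well, and replicate 36, not 34, was its lowest library.

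The minor fibrillar chains of types V and XI, which nucleate fibrils and limit their diameter, gave the smallest p-value of the class in each direction. Col11a2 (chromosome 17, 34039437 to 34066685) was at 12, 19.3 and 15.1 CPM in AAV9-HSA-CAAHR and at 9.64, 12.3 and 9.31 CPM in AAV9-HSA-GFP. The groups overlapped only where replicate 31 (12) lay under replicate 43 (12.3). On the log2 scale the difference was 0.57 ± 0.18 (SE), with an adjusted p of 0.096 by edgeR and 0.039 by DESeq2. Col5a1 was at 17.5, 15.5 and 15.5 CPM and at 19.3, 14.3 and 21.4 CPM, with a log2 fold change of -0.18 ± 0.15 and an adjusted p of 0.493 by edgeR. Its AAV9-HSA-CAAHR values all lay within the range of the AAV9-HSA-GFP values.

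By the mean over all 6 libraries per kb of annotated exon, Col4a2 and Col4a1 followed Col1a1, just above Col1a2, whose long annotated exons lower its value. In AAV9-HSA-GFP muscles alone Col1a2 was above Col4a1. Col4a2 was at 13.7 ± 2.24 CPM per kb in AAV9-HSA-CAAHR and 12.4 ± 2.48 CPM per kb in AAV9-HSA-GFP, and Col4a1 was at 13.0 ± 2.69 and 10.9 ± 2.07 CPM per kb (SD, n = 3). These genes encode the chains of the main type IV trimer and are transcribed in opposite directions from starts 21 bases apart. Within single libraries Col4a1 was at 0.823 to 1.0 times Col4a2. Differences in level between these 2 genes and Col1a2 were not tested.

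Basement membrane collagen genes did not pass the test either. Col4a1 was at 115, 75.7 and 101 CPM in AAV9-HSA-CAAHR and at 94.5, 64.4 and 85.2 CPM in AAV9-HSA-GFP, at a log2 fold change of 0.26 ± 0.18 (SE) and, by edgeR, an adjusted p of 0.441. Col4a2 was at 102, 74.0 and 96.2 CPM and at 91.2, 63.1 and 91.9 CPM, with a log2 fold change of 0.15 ± 0.17 and an adjusted p of 0.668 by edgeR. In both genes the groups overlapped, with replicate 43 lowest and replicate 31 highest. Col15a1, which encodes a proteoglycan-bearing collagen at the outer face of the basement membrane, was at 17.2, 12.9 and 15.2 CPM and at 20.6, 14.8 and 19.9 CPM, with a log2 fold change of -0.29 ± 0.15 and an adjusted p of 0.279 by edgeR. Its groups overlapped.

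The smallest p-value of the basement membrane class belonged to Col4a4, which encodes a chain of the type IV trimer best known from kidney glomeruli. It was at 1.52, 1.8 and 1.43 CPM in AAV9-HSA-CAAHR and at 2.13, 2.16 and 2.25 CPM in AAV9-HSA-GFP. All AAV9-HSA-CAAHR libraries lay below all AAV9-HSA-GFP libraries. The log2 fold change was -0.46 ± 0.19 (SE), and the adjusted p of 0.181 by edgeR did not pass. Its partner Col4a3, chosen after its values were seen, was at 1.13, 0.963 and 1.33 CPM and at 1.84, 1.54 and 1.36 CPM. Its groups also did not overlap, with a log2 fold change of -0.47 ± 0.24 and an adjusted p of 0.263 by edgeR. Of the exonic length of Col4a3, 5.6% is shared with C430014B12Rik on the opposite strand.

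**Figure D3:**
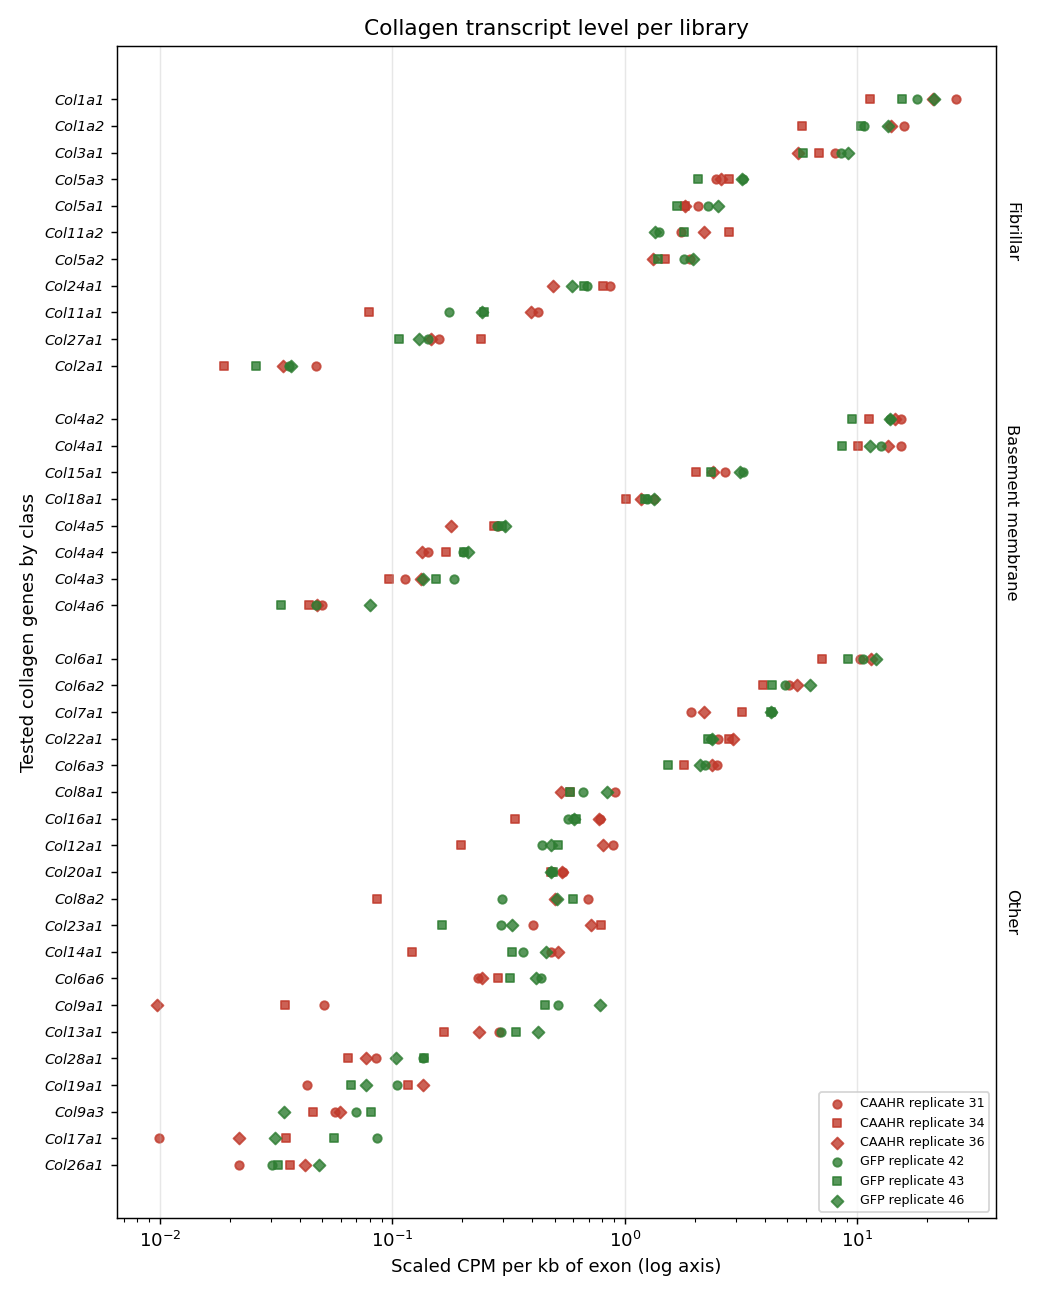
Scaled CPM per kb of annotated exon on a log axis for the 39 tested collagen genes, grouped by class and ordered by mean level within each. Each library has its own marker, coloured by vector. Col1a1 leads the fibrillar genes, Col4a2 the basement membrane genes and Col6a1 the others, and the groups overlap in each of them.

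Type VI collagen genes, which are best known from the Ullrich and Bethlem muscle disorders, differed widely in level, and Col6a1 and Col6a2 had the highest levels per length outside the fibrillar and basement membrane classes. Col6a1 was at 9.59 ± 2.28 CPM per kb in AAV9-HSA-CAAHR and 10.6 ± 1.43 CPM per kb in AAV9-HSA-GFP, and Col6a2 was at 4.85 ± 0.817 and 5.14 ± 1.02 CPM per kb (SD, n = 3). Unscaled for length, Col6a1 was at 44.9, 30.9 and 50.2 CPM and at 46.6, 39.9 and 52.4 CPM, at a log2 fold change of -0.14 ± 0.18 (SE) and, by edgeR, an adjusted p of 0.702. Col6a2 was at 42.3, 32.8 and 46 CPM and at 40.5, 35.7 and 52.1 CPM, with a log2 fold change of -0.08 ± 0.17 and an adjusted p of 0.816 by edgeR. In both genes replicate 34 was lowest, replicate 46 was highest, and the groups overlapped. Among genes chosen after their values were seen, Col6a6 was at 2.14, 2.61 and 2.23 CPM and at 3.98, 2.93 and 3.80 CPM. Its groups did not overlap. The log2 fold change was -0.62 ± 0.18, with an adjusted p of 0.0712 by edgeR. It was called in 3 of 14 alternatives, all by edgeR. The adjusted p was 0.0498 without a filter on low counts, 0.049 with upper quartile scaling and 0.0491 without replicate 34.

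A further 4 members had groups that did not overlap and an adjusted p above the threshold, and they were chosen after their values were seen. Col22a1, a FACIT of the myotendinous junction, was at 23.3, 25.8 and 27.0 CPM in AAV9-HSA-CAAHR and at 21.7, 20.9 and 21.9 CPM in AAV9-HSA-GFP, at a log2 fold change of 0.24 ± 0.09 (SE) and, by edgeR, an adjusted p of 0.156. Col27a1, a fibrillar collagen gene best known from cartilage, was at 2.06, 3.13 and 1.90 CPM and at 1.87, 1.39 and 1.70 CPM, with a log2 fold change of 0.51 ± 0.24 and an adjusted p of 0.236 by edgeR. Both had every AAV9-HSA-CAAHR library above every AAV9-HSA-GFP library. Col13a1, a transmembrane collagen gene of the neuromuscular junction, was at 1.32, 0.77 and 1.08 CPM and at 1.35, 1.56 and 1.94 CPM, with a log2 fold change of -0.62 ± 0.27 and an adjusted p of 0.201 by edgeR. Col28a1, a gene expressed around Schwann cells, was at 0.415, 0.315 and 0.377 CPM and at 0.663, 0.673 and 0.51 CPM, with a log2 fold change of -0.73 ± 0.32 and an adjusted p of 0.195 by edgeR. Both were lower in every AAV9-HSA-CAAHR library. The Schwann cell and nerve markers summed to 47.3 to 77.7 CPM in AAV9-HSA-CAAHR and 78.3 to 128 CPM in AAV9-HSA-GFP, with no call by edgeR. Any link between these markers and the 2 genes was not tested.

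In several fibrillar and FACIT genes 1 library stood apart. AAV9-HSA-CAAHR replicate 34 was under 0.5 times the mean of replicates 31 and 36 in 8 of 39 tested collagen genes, against 5.14% of all genes. They were 4 fibrillar genes (Col1a1, Col1a2, Col2a1 and Col11a1), 3 FACIT genes (Col12a1, Col14a1 and Col16a1) and Col8a2, and none of the 8 basement membrane genes. Col12a1, a FACIT gene abundant in tendon and fascia and chosen after its values were seen, was at 13.6, 2.99 and 12.3 CPM in AAV9-HSA-CAAHR and 6.73, 7.88 and 7.33 CPM in AAV9-HSA-GFP. Col11a1 was at 5.42, 1.02 and 5.02 CPM and at 2.24, 3.17 and 3.08 CPM. In both genes replicate 34 was below and replicates 31 and 36 above every AAV9-HSA-GFP library. The log2 fold change of Col12a1 was 0.39 ± 0.55 (SE) with an adjusted p of 0.738, and that of Col11a1 was 0.43 ± 0.58 with an adjusted p of 0.723, both by edgeR. Without replicate 34 these became 0.81 with an adjusted p of 0.00331 and 0.87 with an adjusted p of 0.0174, and 5 collagen genes passed (Col6a6, Col7a1, Col9a1, Col11a1 and Col12a1), beside 10.7% of all genes in that fit by edgeR. The 8 tendon cell markers, of which none was called by edgeR, DESeq2 or voom and 1 had an unadjusted p under 0.05, moved with replicate 34, summing to 80.9 CPM there, at most 484 CPM in AAV9-HSA-CAAHR and 191 to 328 CPM in AAV9-HSA-GFP, and 6 of the 8 were under 0.5 times the mean of replicates 31 and 36. The same held for 8 of 8 slow fibre markers and 6 of 7 adipocyte markers, and the part of these tissues in the collagen values was not tested.

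**Figure D4:**
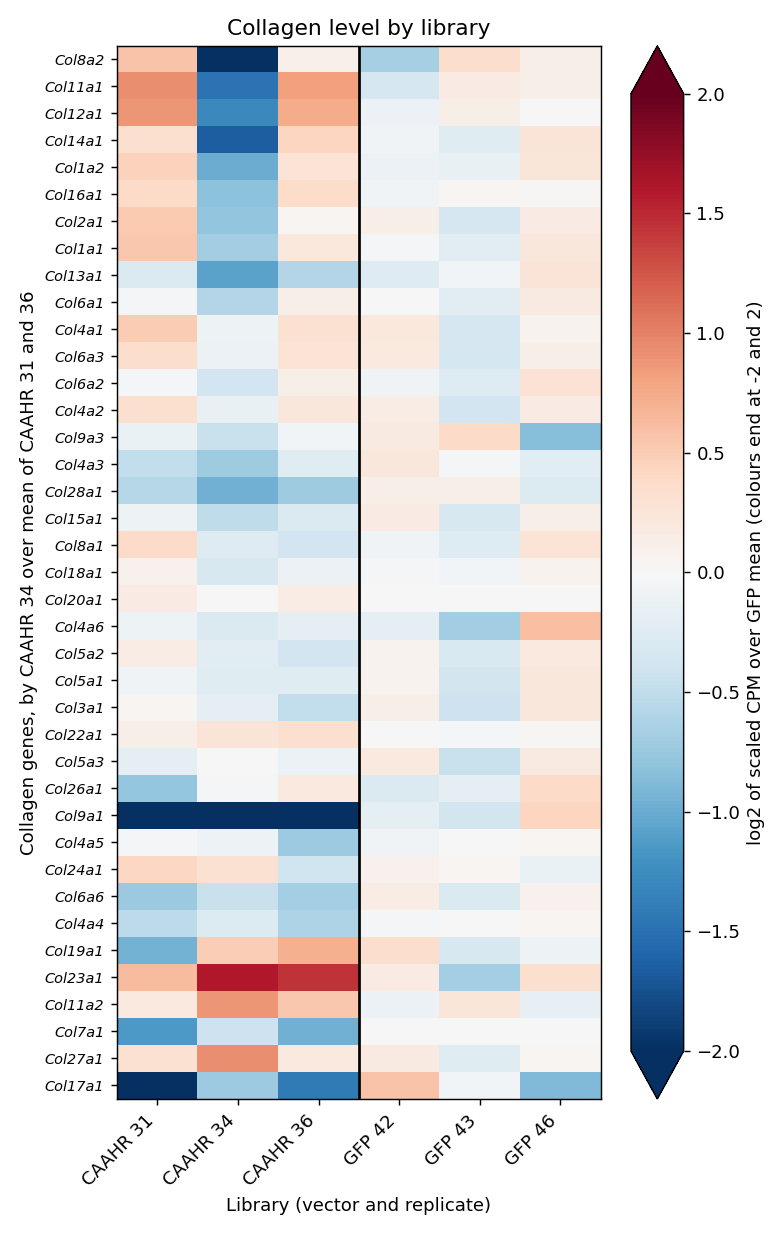
Heat map of the log2 ratio of scaled CPM to the AAV9-HSA-GFP mean, with 1 row for each of the 39 tested collagen genes and 1 column for each library. Colours end at -2 and 2, and rows are ordered by the level in AAV9-HSA-CAAHR replicate 34 over the mean of replicates 31 and 36, so that Col8a2, Col11a1 and Col12a1 lie at the end where replicate 34 is lowest.

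All collagen genes together held 0.103%, 0.0634% and 0.0911% of library counts in AAV9-HSA-CAAHR and 0.0835%, 0.0673% and 0.0901% in AAV9-HSA-GFP. The groups overlapped, with means of 0.0859% ± 0.0205 and 0.0803% ± 0.0117 (SD, n = 3). Fibrillar genes took 50% ± 3.93 of collagen counts in AAV9-HSA-CAAHR and 50.2% ± 1.57 in AAV9-HSA-GFP. Basement membrane genes took 26.1% ± 1.17 and 23.8% ± 2.03, and the others 23.8% ± 2.91 and 26.0% ± 1.23. Col1a1, Col1a2 and Col3a1 together made up 40.5% ± 6.21 and 41.2% ± 1.80, with 33.7% in replicate 34. Col4a1 and Col4a2 together made up 22.2%, 23.6% and 22.4% in AAV9-HSA-CAAHR and 21.9%, 18.1% and 19.1% in AAV9-HSA-GFP. Every AAV9-HSA-CAAHR library lay above every AAV9-HSA-GFP library in that last share, which was not tested.

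Ratios between chains that assemble together were compared over the libraries. The ratio of Col1a1 to Col1a2, in CPM per kb, lay between 1.51 and 1.95, that of Col4a1 to Col4a2 between 0.823 and 1.0, and that of Col6a1 to Col6a2 between 1.79 and 2.19. The ratio of Col5a1 to Col5a2 lay between 1.08 and 1.38. Wider ranges were found for Col4a3 to Col4a4, from 0.569 to 0.991, and for Col6a1 to Col6a3, from 3.92 to 5.93. In each of these the groups overlapped. The ratio of Col3a1 to Col1a1 ran from 0.263 to 0.606, with its highest value in replicate 34. The ratio of Col11a1 to Col11a2 ran from 0.0284 in replicate 34 to 0.244 in replicate 31. All these ratios depend on the annotated exon lengths, so their size does not give the proportion of chains. Col1a2 has 12426 bases against 6563 for Col1a1, and Col6a2 has 8326 against 4380 for Col6a1. Unscaled for length, mean CPM was higher for Col1a2 than Col1a1 (148 against 129 in AAV9-HSA-CAAHR, 144 against 120 in AAV9-HSA-GFP). Over the libraries Col6a1 ran from 30.9 to 52.4 CPM and Col6a2 from 32.8 to 52.1 CPM.

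The genes that make, cut and bind collagen were examined as lists. Among 22 tested genes of chain hydroxylation, folding and secretion, 2 rose and none fell (9.09%, against 7.6% of all genes). P3h4, which encodes a partner of the lysyl and prolyl hydroxylases, was at 6.25, 4.45 and 6.36 CPM in AAV9-HSA-CAAHR and 2.57, 3.46 and 3.42 CPM in AAV9-HSA-GFP, at a log2 fold change of 0.85 ± 0.19 (SE) and, by edgeR, an adjusted p of 0.0277. Mia2, which encodes a protein of large-cargo export from the endoplasmic reticulum, was at 78.4, 77.9 and 73.9 CPM and at 62.6, 61.6 and 57.0 CPM, with a log2 fold change of 0.35 ± 0.09 and an adjusted p of 0.0426 by edgeR. In both genes the groups did not overlap. Serpinh1, the gene of the collagen chaperone HSP47, was at 50, 31.5 and 42.2 CPM and at 33.4, 33.2 and 30 CPM, with a log2 fold change of 0.36 ± 0.15 and an adjusted p of 0.202 by edgeR. Replicate 34 alone overlapped the AAV9-HSA-GFP range, and without it the adjusted p was 0.0162 by edgeR. The call of P3h4 was lost without any library other than 34, with adjusted p of 0.0994 without 31, 0.118 without 36, 0.0845 without 42, 0.058 without 43 and 0.0742 without 46, and that of Mia2 without any library, with adjusted p of 0.103, 0.0597, 0.0955, 0.0862, 0.124 and 0.123 in library order, all by edgeR. Mia2 also lost its call with upper quartile scaling (log2 fold change 0.27, adjusted p 0.0875 by edgeR).

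The largest change among these partners was in a procollagen protease. Adamts14, which encodes an enzyme that removes the amino-terminal propeptide of fibrillar procollagens, was at 5.48, 7.98 and 6.92 CPM in AAV9-HSA-CAAHR and at 0.518, 0.817 and 0.963 CPM in AAV9-HSA-GFP. Every AAV9-HSA-CAAHR library was above every AAV9-HSA-GFP library, an 8.83-fold higher mean level, at a log2 fold change of 3.14 ± 0.25 (SE) and, by edgeR, an adjusted p of 0.000222. Adamts2, which encodes the related and better known enzyme of the same step, was at 7.02, 4.85 and 6.63 CPM and at 10.8, 8.44 and 13.6 CPM. It was lower in every AAV9-HSA-CAAHR library, with a log2 fold change of -0.83 ± 0.20 and an adjusted p of 0.0382 by edgeR. Those were the 2 calls among 13 tested genes of processing and crosslinking (15.4%, against 7.6% of all genes). Lox, the gene of the crosslinking enzyme lysyl oxidase, was at 14.7, 3.45 and 12.6 CPM and at 8.85, 11.7 and 8.84 CPM, with replicate 34 lowest, a log2 fold change of 0.07 ± 0.53 and an adjusted p of 0.959 by edgeR. Adamts14 was called in all 14 alternatives (adjusted p from 1.83e-44 to 0.00206), whereas the call of Adamts2 was lost without replicate 31 (0.0744), 36 (0.102), 42 (0.0895) or 46 (0.122), and with library size scaling (0.0611) or limma voom (0.0578).

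Proteins that organise fibrils, such as small leucine-rich proteoglycans, gave no call among 20 tested genes by edgeR, and 1 had an unadjusted p under 0.05. DESeq2 called 1 and limma voom 0. Their median log2 fold change was -0.06. Replicate 34 was the lowest library in 19 of the 20, against 18.9% of all genes, and under 0.5 times the mean of replicates 31 and 36 in 13 of the 20. Sparc, which encodes a collagen-binding matrix protein, was at 175, 108 and 161 CPM in AAV9-HSA-CAAHR and at 206, 139 and 195 CPM in AAV9-HSA-GFP, at a log2 fold change of -0.29 ± 0.21 (SE) and, by edgeR, an adjusted p of 0.457. The groups overlapped.

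Among 14 tested basement membrane partners, 1 rose (7.14%, against 7.6% of all genes). Hspg2, the gene of the proteoglycan perlecan, was at 181, 169 and 202 CPM in AAV9-HSA-CAAHR and at 129, 110 and 139 CPM in AAV9-HSA-GFP. The groups did not overlap, at a log2 fold change of 0.55 ± 0.12 (SE) and, by edgeR, an adjusted p of 0.0246. Lama2, which encodes the laminin chain of the myofibre basement membrane, was at 30.5, 24.6 and 30.6 CPM and at 31.7, 28 and 30.5 CPM, with a log2 fold change of -0.07 ± 0.11 and an adjusted p of 0.748 by edgeR. Of 8 tested collagen receptor genes, 1 fell (12.5%, against 7.6% of all genes). Lair1, an inhibitory collagen receptor gene of leukocytes, was at 0.297, 0.193 and 0.279 CPM and at 0.642, 1.44 and 0.736 CPM, with a log2 fold change of -1.86 ± 0.41 and an adjusted p of 0.0254 by edgeR. Lair1 was lower in every AAV9-HSA-CAAHR library. The macrophage markers were also lower in sum, with no call by edgeR, and any link between them and Lair1 was not tested. By edgeR the call of Hspg2 was lost without replicate 31 (adjusted p 0.072), 36 (0.107), 42 (0.0624) or 43 (0.0954), and that of Lair1 without 31 (0.0691), 36 (0.0771), 43 (0.083) or 46 (0.0551).

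**Figure D5:**
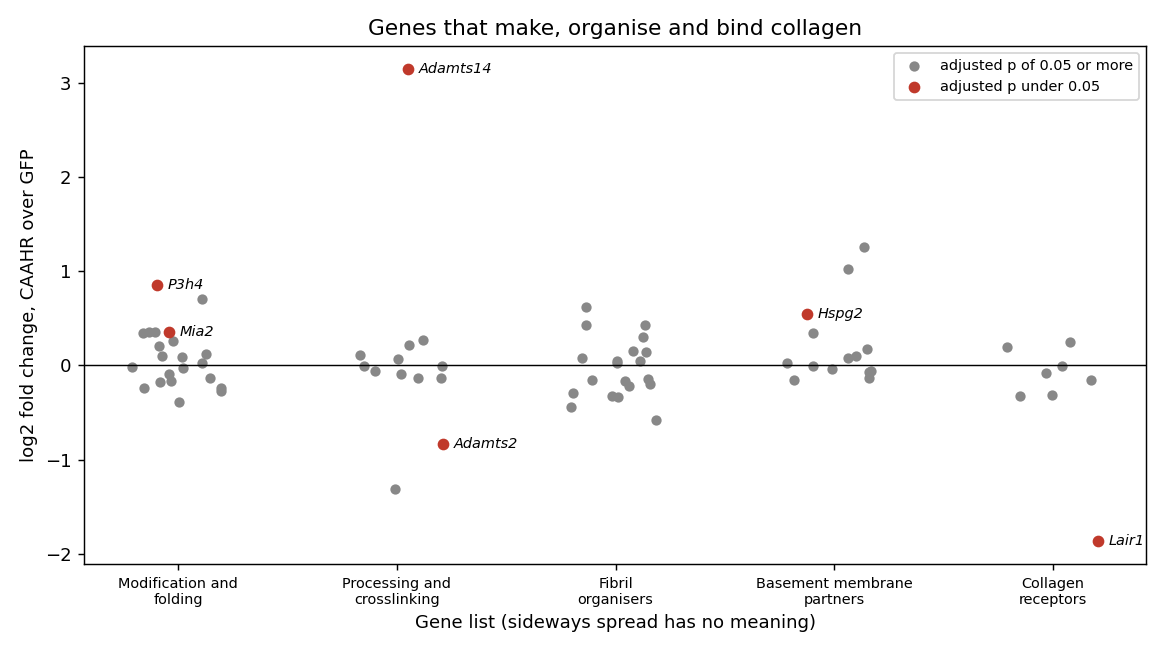
Log2 fold change, AAV9-HSA-CAAHR over AAV9-HSA-GFP, for each tested gene of collagen synthesis, processing, fibril organisation, basement membrane and receptors. Each point is 1 gene, its sideways place has no meaning, and genes with an adjusted p under 0.05 by edgeR are coloured and named. Adamts14 stands highest at 3.14 and Lair1 lowest at -1.86.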

How the data were processed

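Poly(A)-selected RNA of 6 gastrocnemius muscles was sequenced as paired ends. Per the labels and the study's methods, the authors trimmed reads with Trimmomatic 0.36, aligned them to GRCm38 with STAR 2.5.2b and summed uniquely assigned exonic reads with featureCounts. The deposited values are raw counts per gene. Whether counting used strand is not given in the sources used here, so the small overlaps of collagen genes with antisense genes carry uncertainty. Identifiers of 49056 of 49315 genes matched GENCODE mouse release M21, which gave positions and exonic lengths. A further 174 rows of the count table had no symbol and stayed in.

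The main test was made with edgeR 4.0.16 in R 4.3.3: filterByExpr (15847 genes), TMM scaling, robust quasi-likelihood F test, no covariates, Benjamini-Hochberg threshold of 0.05. SEs are the log2 fold change divided by the square root of F. Scaled CPM was divided by exonic length to compare genes. Sums and medians were not tested. No library repeated another of its group (lowest chi-square over degrees of freedom 21.6). Alternatives were DESeq2 1.42.0, limma 3.58.1 voom with sample weights, edgeR without robust estimation, other scalings, other filters on low counts, and leaving out each library. The calculation was tested on simulated counts.

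Given in full were called members and, per class, the 3 highest per kb and the smallest p in each direction; in partner lists, called genes (at most 4 per direction) and Serpinh1, Lox, Lama2 and Sparc. Members and lists were chosen with earlier results of these data known.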

Additional observations from a re-analysis of the deposited data

How the results depend on the processing

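No paired analysis was possible because no replicate number occurs in both groups. The count of collagen genes called, 3, became 5 without a filter on low counts (8.62% of all genes). Calls of higher genes (1) became 2 with the DESeq2 test, with library size only and without a filter, and 0 with upper quartile scaling. Calls of lower genes (2) became 1 with at least 10 counts in every library, where Col9a1 was not tested, and fibrillar calls (0) became 1 with DESeq2, library size only and no filter. Over all genes, 1923 of 28661 were called with DESeq2, 1476 of 15847 with library size only and 1348 of 15847 with upper quartile scaling. With at least 10 counts in every library the number was 1016 of 14231. Leaving out 1 library gave 1 to 5 calls, 0 to 2 higher, 1 to 3 lower, 0 to 1 fibrillar and 1 to 4 among the others. Those fits called from 530 of 16170 genes in all (without AAV9-HSA-CAAHR replicate 36) to 1727 of 16180 (without replicate 34). The median log2 fold change then ranged from -0.22 to 0.08 over all tested collagen genes, -0.18 to 0.25 over fibrillar, -0.34 to -0.15 over basement membrane and -0.27 to 0.08 over other genes, and the difference in the collagen share of counts from -0.00308 to 0.0169 percentage points. Of 460 values under alternatives for the 33 genes whose fold change is given, 394 kept their direction and side of the threshold, 37 lost a call, 10 gained one and 19 changed sign. The sign changed with upper quartile scaling in Col1a2 (log2 fold change -0.03) and Lox (-0.01), with library size only in Col6a2 (0.000428) and Lama2 (0.01), and with limma voom in Col6a2 (0.04). Without 1 library the log2 fold change ranged from -0.18 to 0.37 for Col1a1, from -0.23 to 0.36 for Col1a2, from -0.01 to 0.26 for Col4a2, from -0.3 to 0.03 for Col6a1, from -0.2 to 0.08 for Col6a2, from -0.48 to 0.06 for Col9a3, from -0.13 to 0.01 for Lama2 and from -0.28 to 0.47 for Lox, none of which was called in any of these fits. The causes were not tested. With 3 libraries a group and genes such as Col9a3 under 0.4 CPM, small differences were not detectable.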
